A study of Homo sapiens with 6 samples.

Results

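KRT5, KRT14 and KRT15 encode the keratins of the basal layer of stratified epithelium. They were taken by gene symbol as 3 of the 17110 genes in a TPM table of CAL-27, an established human cell line of tongue squamous carcinoma. The 3 genes were chosen for their difference between sphere and parental libraries, so that difference is described below without a test. The sphere group held 3 libraries of cells that had been obtained by suspension culture to isolate cancer stem cells. The parental group held 3 libraries of the primary adherent cells. The labels name no treatment, and both groups carry the same line name. The labels name no culture for each replicate. A p-value here therefore reflects variation among libraries alone, and that variation may be technical. A common cell stock for both groups was not tested. Values are TPM, transcript abundance corrected for gene length and scaled to the same total in each library, so levels of different genes can be set side by side, while the sequencing depth is unknown. In these bulk libraries more cells of a type and more RNA per cell cannot be told apart.

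Keratins form intermediate filaments as obligate pairs of an acidic type I and a basic type II protein. In the basal layer of skin and oral mucosa the main pair is KRT5, of type II, with KRT14, of type I. KRT15 is a further type I keratin of basal cells that can also pair with KRT5, and it marks stem cells of the hair follicle bulge. Cells that leave the basal layer replace this pair by suprabasal keratins, wounded or hyperproliferative epithelium adds KRT6A, KRT6B, KRT16 and KRT17, and simple epithelium uses KRT8 with KRT18.

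The coding sequences show in part how far single-end reads of 50 bases can tell these genes apart. They cover 1416 of 1662 transcript bases in KRT14, 1770 of 2531 in KRT5 and 1368 of 2394 in KRT15. The untranslated rest of these transcripts was not compared. The stretch shown, of 60 bases in the first coding exon, encodes the start of the central rod domain in the type I genes (GENCODE 29, GRCh38, minus strand). It lies at chr17:41586412-41586471 in KRT14, at chr17:41518435-41518494 in KRT15, at chr17:41612260-41612319 in KRT16 and at chr17:41624180-41624239 in KRT17. Capitals mark bases that differ from KRT14.
KRT14: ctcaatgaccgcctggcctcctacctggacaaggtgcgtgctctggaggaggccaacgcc
KRT15: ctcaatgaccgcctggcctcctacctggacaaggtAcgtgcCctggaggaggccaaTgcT
KRT16: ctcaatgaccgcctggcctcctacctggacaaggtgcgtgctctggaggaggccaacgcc
KRT17: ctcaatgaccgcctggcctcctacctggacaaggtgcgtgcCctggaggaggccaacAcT
KRT16 was identical to KRT14 over the stretch, KRT17 differed at 3 bases and KRT15 at 4.

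Over the whole coding sequence KRT14 was the member with the most sequence in common with other genes. Its 1416 coding bases were 87.9% identical to KRT16 and 86.0% to KRT17 over the aligned bases, and 74.1% to KRT15. The longest run of identical bases shared with KRT16 was 158 bases. Of the 1367 windows of 50 bases in the KRT14 coding sequence, 24.6% were also found, base for base, in a transcript of another GENCODE gene, and 12.8% were found in KRT16. Pseudogenes of KRT16 and KRT17 were among the other exact matches, with 6.9% of windows in KRT16P5 and 6.7% each in KRT16P4 and KRT16P6. KRT5, with 1770 coding bases, had 5.8% of its 1721 windows elsewhere, with 4.9% in KRT6C, 4.8% in KRT6B and 3.8% in KRT6A, and was 83.5% identical to KRT6B. KRT15, with 1368 coding bases, had 1.3% of its 1319 windows elsewhere, the same share as in KRT13, to which it was 79.6% identical. With up to 2 mismatches allowed and only keratin genes and their pseudogenes searched, the shares were 70.5% for KRT14, 19.9% for KRT5 and 10.1% for KRT15. The sources used here do not give how the authors divided such reads. Over coding bases, each KRT14 level carries this limit more than the KRT5 and KRT15 levels do.

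KRT14 was the member with the lowest level in parental libraries and the highest in sphere libraries. KRT14 (Entrez Gene 3861) was at 7613.67, 7741.16 and 7759.78 TPM in sphere libraries 1 to 3. It was at 4.47, 4.88 and 4.72 TPM in parental libraries 1 to 3. The groups lay far apart, with means of 7705 ± 79.5 TPM in sphere and 4.69 ± 0.21 TPM in parental libraries (SD, n = 3 each), a ratio of 1643. Its log2(TPM + 1) difference, sphere minus parental, was 10.4 and stood first among the 12261 genes with a mean of at least 1 TPM. KRT14 ranked 8th by level in each sphere library, and between 9839 and 10024 in parental libraries.

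KRT15 (Entrez Gene 3866) was at 1561.56, 1522.08 and 1533.25 TPM in sphere libraries and at 22.64, 20.73 and 22.43 TPM in parental libraries. No parental library came near a sphere library. The means were 1539 ± 20.4 TPM in sphere and 21.9 ± 1.05 TPM in parental libraries (SD, n = 3 each), a ratio of 70.2, and the log2 difference of 6.07 stood at position 29 of 12261. KRT15 ranked 99 or 100 by level in sphere libraries and between 5558 and 5932 in parental libraries.

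KRT5 (Entrez Gene 3852) was the one member already abundant in parental libraries. It was at 5990.35, 6047 and 5949.38 TPM in sphere libraries and at 692.8, 718.66 and 753.6 TPM in parental libraries. The highest parental library was again far below the lowest sphere library. The means were 5996 ± 49.0 TPM in sphere and 722 ± 30.5 TPM in parental libraries (SD, n = 3 each), a ratio of 8.31, and the log2 difference of 3.05 stood at position 212 of 12261. Its rank by level was 18 to 20 in sphere and 179 to 196 in parental libraries.

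Replicates of a group differed little beside these differences. The coefficient of variation (SD over mean) was 0.818% for KRT5, 1.03% for KRT14 and 1.32% for KRT15 in sphere libraries, and 4.23%, 4.41% and 4.78% in parental libraries. Over genes within 2-fold of the same mean level, the median coefficient of variation was 2.31% to 2.70% in sphere libraries and 3.24%, 9.60% and 5.30% near KRT5, KRT14 and KRT15 in parental libraries. The members did not order the parental libraries alike: library 1 had the lowest KRT5 and KRT14 and the highest KRT15. The sphere and parental libraries did not overlap for the 3 members, and nothing is read from this count, since 35.7% of all tested genes had no overlap and were higher in sphere, 84.6% had none in either direction and the members were chosen from this contrast. A log2 difference of at least 4 toward sphere was found in 0.816% of tested genes, among them KRT14 and KRT15.

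**Figure D1:**
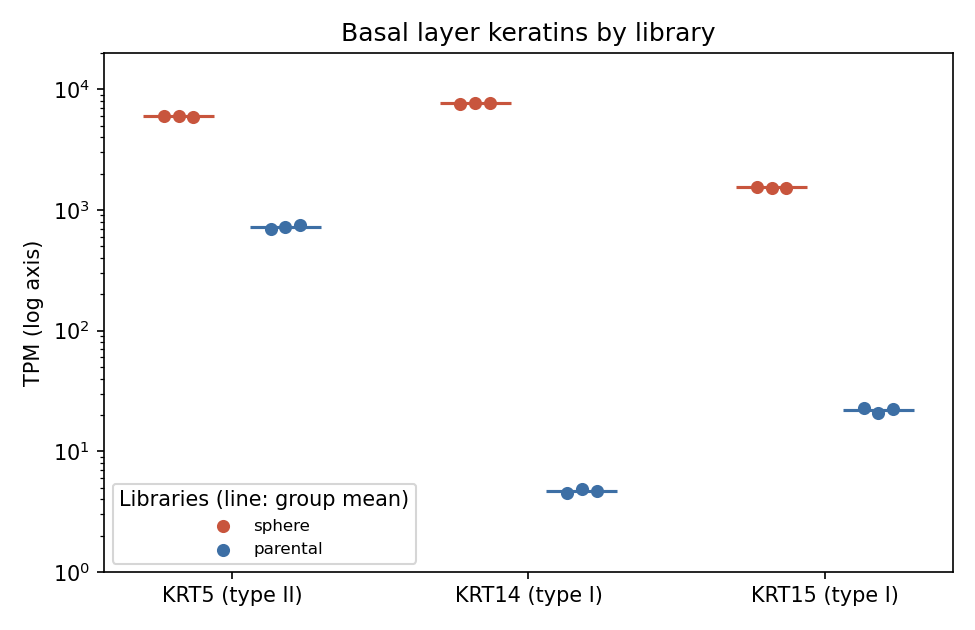
TPM of KRT5, KRT14 and KRT15 on a log axis in each of the 3 sphere and 3 parental libraries, with points for libraries and a line for each group mean. KRT14 is at 7705 TPM in sphere and 4.69 TPM in parental libraries, while KRT5 is at 5996 and 722 TPM.

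The members differed from each other in how far apart the groups were, so that their proportions were not the same in sphere and parental libraries. The ratio of KRT5 to KRT14 TPM was 0.787, 0.781 and 0.767 in sphere libraries and lay between 147 and 160 in parental libraries. Thus the type II member and its usual type I partner were at similar levels in sphere libraries, whereas in parental libraries KRT14 was scarce beside KRT5. Set against the sum of KRT14 and KRT15, KRT5 was at a ratio of 0.649 ± 0.0073 in sphere libraries and 27.1 ± 1.4 in parental libraries (SD, n = 3 each). The order of the type I members was also different. KRT14 was at 5.01 ± 0.11 times the KRT15 level in sphere libraries and at 0.214 ± 0.019 times in parental libraries, where KRT15 was the more abundant of them.

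Among all keratins the basal members held a larger share in sphere libraries, and this came from KRT14 and KRT15 rather than KRT5. Of 54 keratin genes listed, 48 were in the table, and their sum was 34854 to 35262 TPM in sphere and 3799 to 3888 TPM in parental libraries. The 3 members made up 43.4 ± 0.46% of keratin TPM in sphere and 19.4 ± 0.60% in parental libraries (SD, n = 3 each). KRT14 alone was 21.6% to 22.2% in sphere and 0.118% to 0.126% in parental libraries, and KRT15 was 4.39 ± 0.037% and 0.569 ± 0.032%. The KRT5 share was 17.1 ± 0.23% in sphere and 18.7 ± 0.60% in parental libraries, so KRT5 kept about the same place among keratins while its TPM differed 8.31-fold. Of type II keratin TPM alone, KRT5 was 51.4% in sphere and 29.1% in parental libraries.

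**Figure D2:**
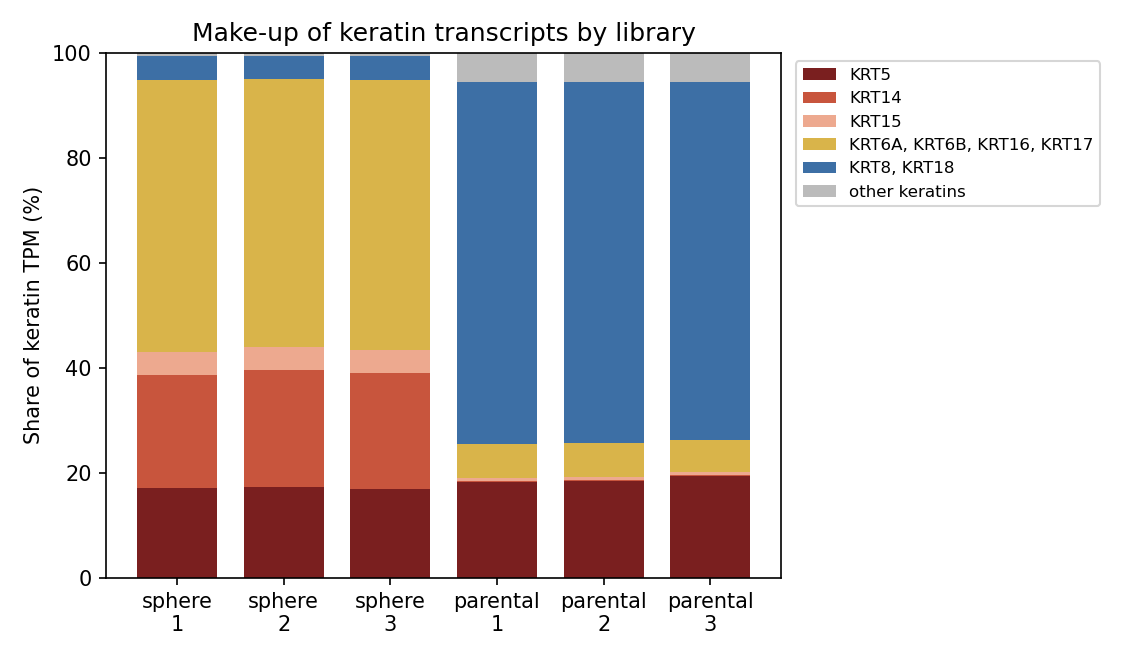
Stacked bars of the share of all keratin TPM (percent) in each library, for KRT5, KRT14, KRT15, the sum of KRT6A, KRT6B, KRT16 and KRT17, the sum of KRT8 and KRT18, and the other keratins. KRT8 and KRT18 make up 4.45% of keratin TPM in sphere and 68.7% in parental libraries, while the KRT5 segment is 17.1% and 18.7%.

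The other tested keratins moved in both directions. Of the other 45 keratin genes with values, 17 were tested, with limma on log2(TPM + 1), and 13 were higher and 4 lower in sphere libraries at an adjusted p under 0.05. Over all tested genes 83.4% passed, 35.1% as higher and 48.2% as lower. Of the 17, 8 had a parental mean under 1 TPM and entered the test through the sphere libraries alone, and none did the reverse. All of those 8 were called higher. The 28 untested keratins did not exceed 1.80 TPM in any library. The median log2 difference was 2.85 for the 9 tested type I keratins and 1.48 for the 8 tested type II keratins, beside -0.13 for all tested genes. Both medians include keratins that entered through the sphere libraries alone. Among tested type II keratins with a parental mean of at least 1 TPM, KRT6A was at 5.13 and KRT6B at 5.94. KRT80 was at -0.87, KRT8 at -1.53 and KRT7 at -2.74. The tested type I keratins with such a mean were KRT16 at 8.04, KRT17 at 6.58, KRT10 at 0.28 and KRT18 at -0.19.

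KRT17, KRT16, KRT6A and KRT6B, the keratins of wounded epithelium named above, rose. KRT17 was at 9649 ± 129 TPM in sphere and 99.7 ± 3.8 TPM in parental libraries (log2 difference 6.58 ± 0.04 SE, limma adjusted p = 3.0e-14), and was the only keratin above KRT14 in sphere libraries. KRT16, the type I keratin closest to KRT14 in sequence, was at 3383 ± 30.7 and 11.9 ± 0.97 TPM (8.04 ± 0.05 SE, limma adjusted p = 6.3e-14). KRT6A, a type II keratin that pairs with both, was at 4353 ± 60.6 and 123 ± 3.4 TPM, and KRT6B at 689 ± 22.7 and 10.3 ± 0.77 TPM. KRT14, KRT16 and KRT17 together came to 20611 to 20808 TPM in sphere and 112 to 119 TPM in parental libraries. The sum is less open to the division of reads among the 3 genes than KRT14 alone, although transcript lengths and reads shared with pseudogenes still enter it. It differed by 7.47 on the log2 scale, against 10.4 for KRT14 alone. KRT17 made up most of the parental sum, so the sum is not a corrected value of KRT14.

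The 4 keratins that passed as lower were KRT8 and KRT18, the main pair of simple epithelium, KRT7 and KRT80. KRT8 fell to 496 ± 13.7 TPM in sphere libraries, against 1431 ± 4.3 TPM in parental libraries (log2 difference -1.53 ± 0.03 SE, limma adjusted p = 1.5e-10). KRT7 fell to 1.28 ± 0.14 TPM, against 14.2 ± 0.93 TPM, and KRT80, a type II keratin found in many epithelia, to 97.8 ± 2.2 TPM, against 179 ± 2.1 TPM. KRT18 was at 1065 ± 29.8 TPM in sphere and 1217 ± 25.2 TPM in parental libraries, and its fall (-0.19, limma adjusted p = 5.4e-04) was lost with median-of-ratios scaling, where the difference was -0.01. KRT5 was at 12.1 ± 0.43 times the KRT8 level in sphere and 0.504 ± 0.022 times in parental libraries. Type I keratins summed to 2.01 ± 0.0079 times the type II sum in sphere and 0.553 ± 0.0056 times in parental libraries.

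By level, the keratin order in sphere libraries was KRT17, KRT14, KRT5, KRT6A, KRT16, KRT15, KRT18, KRT6B, KRT8 and KRT80. In parental libraries it was KRT8, KRT18, KRT5, KRT80, KRT6A, KRT17, KRT15, KRT10, KRT7, KRT16, KRT6B and KRT14. No neighbours in these 2 stretches overlapped in their library ranges. KRT5 stood at position 3 in both orders. Overlap began lower down, between KRT10 and KRT23 in sphere libraries and between KRT86 and KRT81 in parental libraries.

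**Figure D3:**
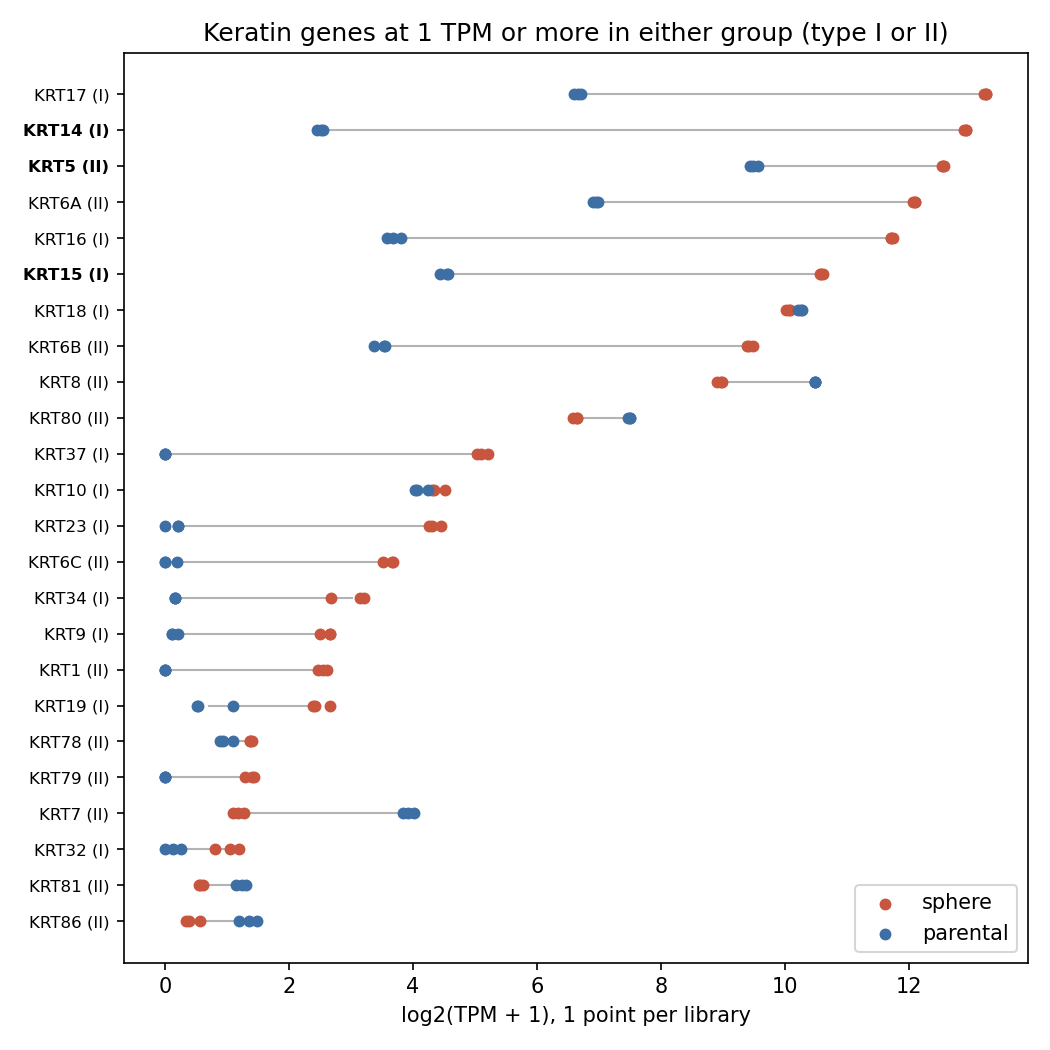
Level of each keratin that averaged 1 TPM or more in sphere or parental libraries, as log2(TPM + 1) with a point for each library and a grey line between group means, ordered by the sphere mean (type I or II in brackets, members in bold). KRT14 spans the widest gap, and KRT8, KRT7 and KRT80 are among those lower in sphere libraries.

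The members lie in the 2 keratin gene clusters, KRT5 at chr12:52514575-52520687 and KRT14 and KRT15 at chr17:41582279-41586921 and chr17:41513746-41521719 (GENCODE 29, GRCh38). In the RefSeq gene order KRT5 is flanked by KRT6A and KRT71. KRT71, a keratin of the hair follicle sheath, was at no more than 0.15 TPM in any library. KRT14 is flanked by KRT16 and by KRT9, the keratin of palm and sole skin, which was at 5.12 ± 0.38 TPM in sphere and 0.107 ± 0.046 TPM in parental libraries. KRT15 is flanked by KRT13, a suprabasal keratin of oral mucosa, and KRT19, a keratin found in basal cells of the bulge and of mucosa. KRT13 did not reach the filter and was at 0.700 ± 0.13 TPM in sphere and 0.413 ± 0.17 TPM in parental libraries. KRT19 was at 4.64 ± 0.60 TPM in sphere and 0.670 ± 0.41 TPM in parental libraries. KRT9 and KRT19 passed the filter through the sphere libraries alone. KRT15 in sphere libraries, at 1539 TPM, thus stood between neighbours at no more than 5.33 TPM.

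**Figure D4:**
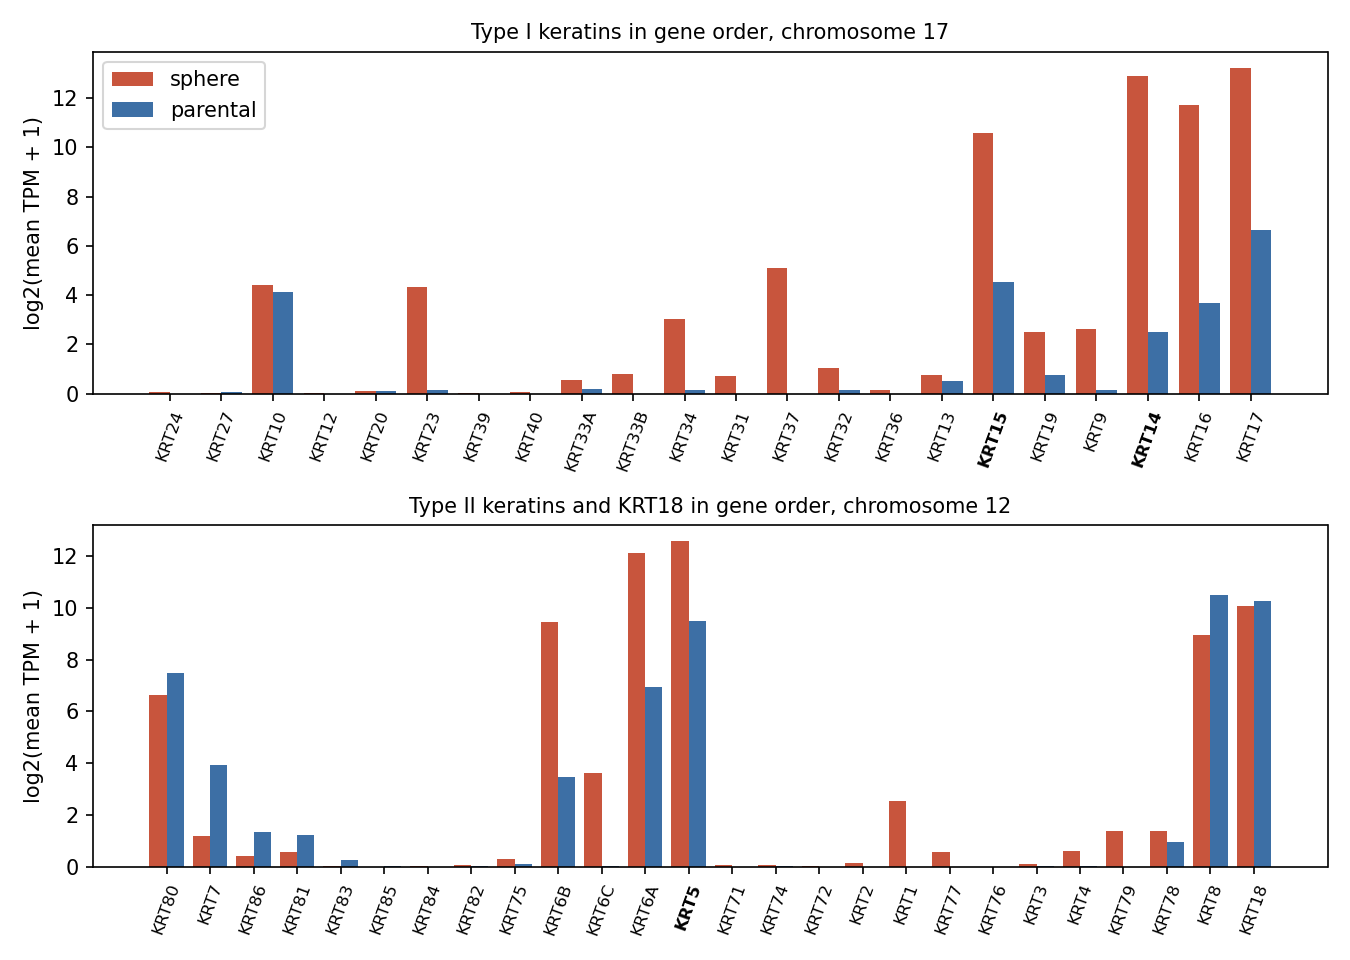
Mean level of each keratin in the table as log2(mean TPM + 1), sphere bars left of parental bars, in RefSeq gene order within the type I cluster on chromosome 17 and the type II cluster, with KRT18, on chromosome 12 (members in bold). KRT15 is at 1539 TPM and its neighbours KRT13 and KRT19 at 0.700 and 4.64 TPM in sphere libraries.

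Of the 3 members, RefSeq's table of sequences at gene starts (GRCh38.p14) holds KRT5. The 250 bases before its RefSeq start lie at chr12:52520395-52520644 on the minus strand. They are shown because a partial motif of the p53 family, which includes TP63, occurs there once, in capitals. The first base of this partial motif lies 97 bases before the start. Its letters are only a part of the full p53 family element, and the full element was not searched for. GENCODE 29 places the start of its KRT5 transcript further upstream, so in that annotation the stretch lies within the gene.
KRT5 upstream: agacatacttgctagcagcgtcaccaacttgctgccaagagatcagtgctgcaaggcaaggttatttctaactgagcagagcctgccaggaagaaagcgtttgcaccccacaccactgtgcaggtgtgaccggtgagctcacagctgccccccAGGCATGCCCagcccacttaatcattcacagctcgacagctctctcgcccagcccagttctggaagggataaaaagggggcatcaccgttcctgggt
On either strand, 5.6% of the 35116 upstream regions of that length in the table hold this partial p53 family motif. The letters TGANTCA (AP-1, in 6.6% of regions), GCCNNNGGC (AP-2, 19.8%), GGGCGG (Sp1, 42.6%) and TATAAA (10.7%) do not occur in the KRT5 stretch.

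Transcription factors known to act on basal keratin genes moved in both directions. Of 24 listed, all in the table, 23 were tested, and 13 were higher and 8 lower in sphere libraries (15 and 6 with median-of-ratios scaling), with a median log2 difference of 0.48 beside -0.13 for all tested genes. Of all tested genes, 35.1% were higher and 48.2% lower, and nothing is read from the mix of directions. TP63, the p53 family factor that sustains basal cells and activates KRT5 and KRT14, was at 144.55, 159.98 and 163.74 TPM in sphere libraries and at 66.68, 65.59 and 64.2 TPM in parental libraries (log2 difference 1.24 ± 0.05 SE, limma adjusted p = 9.4e-09). Every sphere library was above every parental one, by far less than for KRT14. The AP-2 factors TFAP2A, at 65.0 ± 2.8 TPM in sphere and 34.6 ± 2.1 TPM in parental libraries, and TFAP2C, at 28.97 ± 1.2 and 10.6 ± 0.73 TPM, also rose. FOS, an AP-1 subunit, had the largest rise (30.9 ± 0.86 and 3.34 ± 0.37 TPM, 2.88 ± 0.08 SE, limma adjusted p = 4.9e-10), while its relative FOSL2 fell to 33.0 ± 0.052 TPM in sphere libraries, against 56.5 ± 2.0 TPM in parental libraries.

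Among nuclear receptors that repress KRT5 and KRT14 in cultured keratinocytes, the directions were also mixed. RARA, a retinoic acid receptor, had the largest fall of the list (7.88 ± 0.68 TPM in sphere and 20.2 ± 1.9 TPM in parental libraries, log2 difference -1.26 ± 0.08 SE, limma adjusted p = 3.5e-07). The glucocorticoid receptor NR3C1 rose (62.6 ± 1.6 and 26.8 ± 0.73 TPM) and the thyroid hormone receptor THRA fell (11.3 ± 1.0 and 20.8 ± 1.5 TPM). Of the other nuclear receptors listed, RXRA (log2 difference 0.77) and THRB (1.05) rose, and RARG (0.14) did not pass the threshold. THRB passed the filter through the sphere libraries alone. The general factor SP1 was at 33.79, 34.51 and 36.7 TPM in sphere and 35.44, 32.49 and 30.18 TPM in parental libraries (limma adjusted p = 0.18).

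Genes whose proteins anchor keratin filaments were mostly higher. Of 12 desmosome genes, which join keratin filaments of adjacent cells, 12 were tested and 12 rose, with a median log2 difference of 2.51, and PKP1, a plakophilin of the desmosomal plaque, rose most (403 ± 9.0 TPM in sphere and 5.47 ± 0.36 TPM in parental libraries). Of 10 genes for the hemidesmosome and the anchoring matrix beneath basal cells, 9 rose and CD151, a tetraspanin, was lower at 195 ± 6.9 and 235 ± 9.2 TPM, with a list median of 1.87. That fall (-0.27) was lost with median-of-ratios scaling, where the difference was -0.09. Over all tested genes 35.1% were higher and 48.2% lower, with a median log2 difference of -0.13.

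Other genes of the basal layer did not share one direction. Of 15 tested, 8 rose and 6 fell, with a median log2 difference of 0.25. Over all tested genes 35.1% rose and 48.2% fell, so nothing is read from this mix or from that of the bulge genes below. ITGA2, a collagen receptor subunit, rose most (172.5 ± 5.5 TPM in sphere and 21.7 ± 2.2 TPM in parental libraries), and FGFR2, a fibroblast growth factor receptor, fell most (4.11 ± 0.24 and 27.8 ± 0.59 TPM, log2 difference -2.50 ± 0.06 SE, limma adjusted p = 3.8e-10). Of 18 hair follicle bulge genes, the site for which KRT15 is best known, 17 were in the table and 10 were tested, with 5 higher and 3 lower (1 lower with median-of-ratios scaling) and a median of 0.21. FST, the activin antagonist follistatin, rose most (138 ± 6.8 and 4.53 ± 0.13 TPM). The listed gene TCF4, which passed the filter through the parental libraries alone, fell most (0.320 ± 0.10 and 3.88 ± 0.20 TPM). TCF3 and TCF4 were listed by symbol (Entrez Gene 6929 and 6925) and encode E proteins. The bulge factors also called Tcf3 and Tcf4 are TCF7L1 and TCF7L2, at log2 differences of -0.08 and -0.33. The counts above include TCF3 and TCF4, so they are not counts of bulge genes alone. The bulge genes LGR5, CD34, CD200, LHX2, LGR6, GAS1 and DIO2 stayed under the filter.

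The suprabasal genes that were tested were higher in the same libraries as the basal keratins. Of 21 listed, 19 were in the table, 11 were tested and 11 rose, with a median log2 difference of 3.44. Of the 11, 6 had a parental mean under 1 TPM and entered the test through the sphere libraries alone. These 6 could not have been called lower, and the count and the median include them. Among those with a parental mean of at least 1 TPM, the differences ran from 1.24 for TGM1 to 6.96 for CNFN. Of all tested genes, 35.1% were higher. CNFN, a cornified envelope protein, rose most (452 ± 1.8 TPM in sphere and 2.65 ± 0.45 TPM in parental libraries). The suprabasal keratins KRT10, KRT1 and KRT4 stayed far below the basal members in sphere libraries. KRT10 was at 20.1 ± 1.7 TPM and KRT1 at 4.84 ± 0.32 TPM, against 16.3 ± 1.3 TPM and 0 in parental libraries. KRT4 did not exceed 0.64 TPM in any library.

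Of 16 genes for other intermediate filaments, 9 were tested, with 2 higher, 7 lower and a median log2 difference of -1.80, and 3 of the 9 had a mean under 1 TPM in one group and passed the filter through the other, BFSP1 among them. The shares of all tested genes were 35.1% higher and 48.2% lower. VIM, the mesenchymal filament protein, fell most (2.11 ± 0.34 TPM in sphere and 625.5 ± 4.4 TPM in parental libraries), and BFSP1, known from the eye lens, rose most (11.1 ± 0.78 and 0.770 ± 0.11 TPM). VIM was at 1.71 to 2.32 TPM in sphere libraries, where KRT5 was at 5949.38 TPM or more, and at 621 to 629.8 TPM in parental libraries, where KRT5 was at 692.8 to 753.6 TPM.

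**Figure D5:**
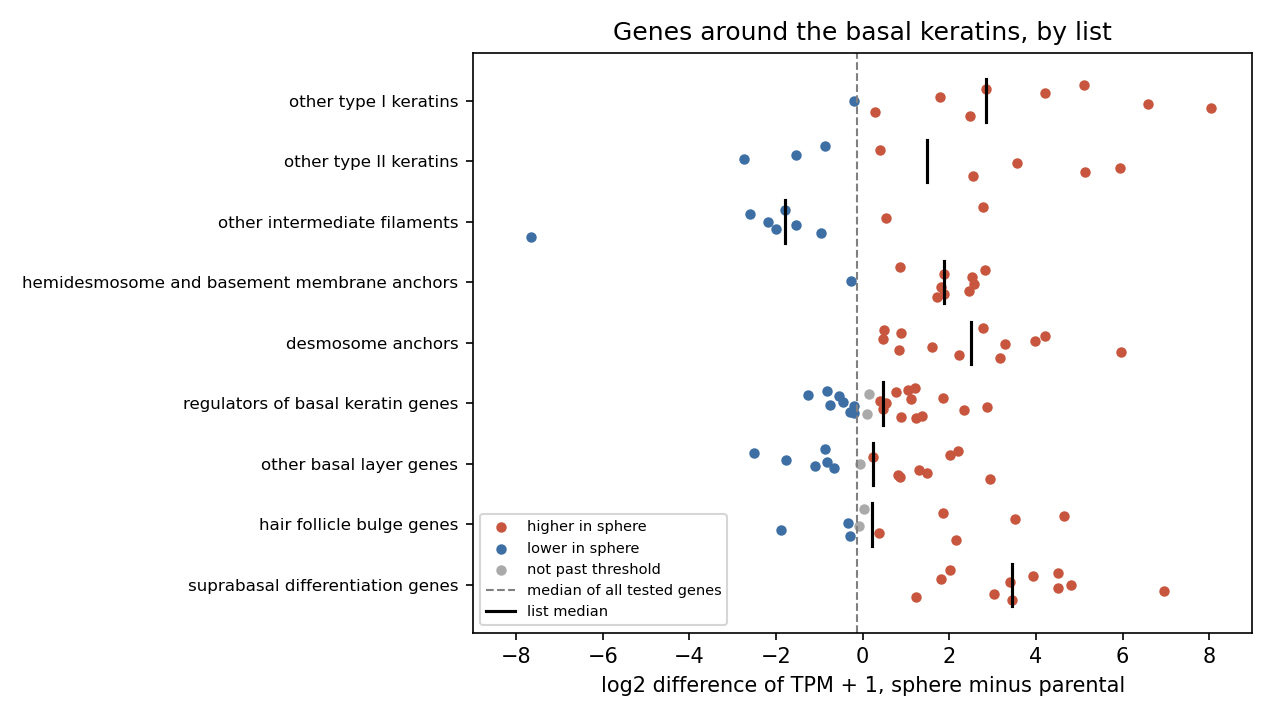
Difference in log2(TPM + 1), sphere minus parental, for each tested gene of 9 lists (points, coloured by the limma call), with each list's median as a black line and the median of all tested genes, -0.13, as a dashed line. The desmosome and suprabasal lists lie to the right of the dashed line, while the regulator, basal layer and bulge lists fall on both sides.

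The genes most like each member in level and difference were found by the Euclidean distance between log2(TPM + 1) profiles over the 6 libraries. S100A11, a calcium-binding protein of keratinocytes, was nearest to KRT5 at a distance of 0.39, with 6613 ± 135 TPM in sphere and 802 ± 31.8 TPM in parental libraries, followed by SFN, the 14-3-3 protein of stratified epithelium, at 2.02 and MTRNR2L8, a nuclear copy of mitochondrial sequence with uncertain reads, at 2.32. KRT14 had no neighbour as close. SPRR1B, a cornified envelope precursor, was at a distance of 2.31 with 3563 ± 89.0 and 8.44 ± 0.50 TPM, then S100A8, a subunit of calprotectin, at 2.35 and KRT16 at 2.91. For KRT15 the nearest were FGFBP1, a carrier of fibroblast growth factors, at 2.44, KRT16 at 2.44 and KRT6B at 2.69. The members were farther from each other than from these genes, at 5.32 between KRT14 and KRT15, 9.27 between KRT5 and KRT15 and 12.12 between KRT5 and KRT14.

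The libraries carried most of the listed squamous markers and little of most markers of other cell types. Of 8 squamous markers, KRT6A, KRT17, TP63 and SFN among them, 7 rose, beside 35.1% of all tested genes. Most of the 7 also stand in the lists above, so this count is not separate from those. Whether these markers tell carcinoma from normal stratified epithelium was not tested. The exception was SOX2, a stem cell factor, with 1.73 ± 0.44 TPM in sphere and 1.70 ± 0.44 TPM in parental libraries (limma adjusted p = 0.94). Myoepithelial cells also contain KRT5 and KRT14, and their 5 markers in the table summed to 21.1 to 21.3 TPM in sphere and 26.0 to 29.1 TPM in parental libraries, with OXTR higher and 2 lower of 3 tested, ACTA2 most. Fibroblast markers summed to 15.7 to 17.3 TPM in sphere and 12 to 12.4 TPM in parental libraries, with COL1A1 higher and PDGFRB lower of 2 tested. Endothelial markers summed to 10.6 to 12.3 and 20.5 to 21.6 TPM. Of 2 tested, CDH5 fell (0.010 ± 0.017 and 10.99 ± 0.29 TPM) and EGFL7 rose (11.5 ± 0.98 and 9.70 ± 0.66 TPM, log2 difference 0.22), a call lost without sphere library 1 (0.18), sphere library 3 (0.19) or parental library 1 (0.17), and with no filter. Melanocyte markers summed to 2.52 to 3.65 and 4.44 to 5.78 TPM, with 2 lower of 2 tested (1 with median-of-ratios scaling), MITF most. PDGFRB, CDH5 and MITF passed the filter through the parental libraries alone. Leukocyte markers summed to 198 to 203 TPM in sphere and 57 to 62 TPM in parental libraries, with 2 higher of 3 tested. Most of the sum was CD68, a lysosomal protein abundant in macrophages at 176 ± 3.1 and 48.1 ± 2.6 TPM in sphere and parental libraries. PTPRC, the pan-leukocyte marker, had 0.2 TPM in sphere library 3 and 0 elsewhere. The part of other cell types in the keratin levels was not tested.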

How the data were processed

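Per the labels' protocols, total RNA was read from one end for 50 bases on the BGISEQ500 platform. The authors deposited 1 table of TPM for 17110 genes in 6 libraries, per the file headers. The table's Control columns were taken as parental, since the series has only these 2 groups. HISAT and Bowtie2 appear without a version, beside a mouse genome build, per the submitters' processing notes, although 17052 gene IDs matched the human RefSeq table. The sources used here give neither counter, annotation nor strand. TPM keeps no depth, so precision rests on the spread between 3 libraries a group.

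Genes with a mean of at least 1 TPM (12261) entered limma 3.58.1 (R 4.3.3) as log2(TPM + 1) (trended eBayes, two-sided, Benjamini-Hochberg adjustment over all tested genes, threshold 0.05). The fit was also run on simulated data in which only a small part of the genes changed. Most tested genes passed in the real data, so that run does not check these calls. Differences on this scale understate changes of low genes. Sequences came from RefSeq and GENCODE 29 and were compared in Python 3.11.15 with Biopython 1.88. Protein sequences were not used here, so likeness between keratins was measured on coding bases.

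Named genes are the members, each list's largest called rise and fall, the 8 most abundant other keratins, flanking genes, TP63, the 3 nearest genes by profile and the 2 keratins nearest in sequence. FOSL2, TFAP2A, TFAP2C, NR3C1, THRA, SP1, SOX2, PTPRC, CD200 and its fellow bulge genes under the filter, KRT1, KRT4 and KRT10 were named after their values were seen. KRT23, KRT81 and KRT86 were named likewise from the keratin order. TCF3, TCF7L1, TCF7L2, TGM1, RARG, RXRA and THRB were also named after their values were seen. The members, the 15 lists and the tests were chosen with earlier results of these data known. A sequence and a gene that these rules select are not reported here.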

Additional observations from a re-analysis of the deposited data

How the results depend on the processing

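The summed keratins were chosen as an alternative after seeing the data, the others before. With median-of-ratios scaling the log2 differences were 3.23 for KRT5, 10.56 for KRT14 and 6.24 for KRT15, the median of all tested genes shifted by 0.16, and 5273 genes passed as higher and 4900 as lower. A pseudocount of 0.1 gave 10.65 for KRT14 and 6.13 for KRT15. Summing keratins that share part of their sequence gave 3.69 for KRT5 with KRT6A, KRT6B and KRT6C, and 7.47 for KRT14 with KRT16 and KRT17. These sums also hold the other genes' own levels, so they are not corrected values of KRT5 or KRT14. Leaving out 1 library gave 3.02 to 3.09 for KRT5, 10.38 to 10.43 for KRT14 and 6.03 to 6.09 for KRT15. It also gave KRT5 to KRT14 ratios of 0.774 to 0.784 in sphere and 151 to 157 in parental libraries, KRT15 to KRT14 ratios of 0.197 to 0.201 and 4.5 to 4.91, basal keratin shares of 43.2% to 43.6% and 19.1% to 19.6%, 9826 to 10047 genes past the threshold and 110 to 115 list genes. Across settings 8485 to 11503 genes passed (10221 as reported), and 95 to 142 list genes (114 as reported). With the replicate block 10192 genes and 114 list genes passed. Deviations of libraries sharing a number correlated at 0.018, -0.018 and -0.055, so the numbers were not taken as pairs. CD151 and KRT18 lost their calls with median-of-ratios scaling, and genes averaging under 5 TPM, such as OXTR, PDGFRB, MITF, KRT9, KRT19 and TCF4, left the test with the stricter filter. Depth is unknown, and low levels such as KRT14 in parental libraries carry no counting interval.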
